A study of Mus musculus with 6 samples.

Results

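The genes of the path from the insulin receptor to the glucose transporter Glut4 were examined in the fat pad of the groin, inguinal white adipose tissue. The 10 genes are the receptor gene Insr, the adaptor genes Irs1 and Irs2, the phosphoinositide 3-kinase genes Pik3r1 and Pik3ca, the kinase genes Akt1 and Akt2, the Akt substrate genes Tbc1d4 and Foxo1, and Slc2a4, which encodes Glut4. They were chosen by symbol, and all 10 were found among the 25894 Ensembl gene identifiers of the table and passed the filter on low values (a mean of at least 1). RNA sequencing covered 6 female C57BL/6N mice, 1 library per mouse, described as 15 weeks old without saying at which step. In 3 of them sleep was fragmented for 8 weeks and followed by 2 weeks of recovery (called fragmented, recovered 1 to 3), and the other 3 were controls (control 1 to 3), whose housing the labels do not describe. Every mouse in both groups was fasted for 10 h before the fat was taken, so each value below is a fasted level. The title of the series names lasting changes in glucose metabolism and in the adipose transcriptome after recovery sleep. The comparison therefore asks whether transcripts of this path still differed from controls after recovery.

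Insulin binding activates the kinase of its receptor, which phosphorylates the adaptors Irs1 and Irs2 on tyrosines. These recruit phosphoinositide 3-kinase, whose lipid product brings Akt to the membrane for activation. In adipocytes Akt2 phosphorylates Tbc1d4 (also called AS160), which releases its brake on Rab proteins and lets Glut4 vesicles reach the cell surface. Akt also phosphorylates Foxo1 and holds it out of the nucleus, so that FoxO target genes are lower after feeding and higher in fasting. Most of this control is exerted on proteins, and the data here are transcript levels only.

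None of the 10 genes passed the false discovery threshold of 0.05. Levels are normalised read counts, the read count of a gene divided by 1 size factor per library, and differences are on the log2(value + 1) scale with an SE. Over the 22290 genes tested by limma, 0 passed as well, which is 0% of the table, and 1201 had an unadjusted p under 0.05. On recovered whole reads edgeR called 0, with 754 genes whose unadjusted p was under 0.05, and DESeq2 called 0, with 1186 such genes. On the same reads limma-voom with a quality weight for each library called 1023 of 16141 genes (6.34%) and 0 of the 10. Insr, Pik3r1, Pik3ca, Akt1 and Tbc1d4 then had an unadjusted p under 0.05, as did 32.9% of all genes. Pik3r1 was at -0.79 (limma-voom adjusted p = 0.0556) and Pik3ca at -0.67 (limma-voom adjusted p = 0.0628) in that fit. Of the 10 genes, 5 had a difference above 0 and 5 below 0. Their median difference was -0.175, against 0.02 over all genes tested, and it was -0.434 without fragmented, recovered 3. By limma on deposited values, Pik3r1 was the 1 gene of the 10 with an unadjusted p under 0.05, and its difference was below 0, a class that held 2.14% of all genes, while 3.24% had such a p with a difference above 0. The groups overlapped for all 10 genes, whereas 5.02% of all genes had every fragmented, recovered mouse above every control and 3.58% had every one below.

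The libraries differed in tissue content. Recovered reads ran from 15610201 to 19703569 per library. The 16 adipocyte markers were above 0 in every library. Their summed normalised read counts ran from 452400 to 789900 in fragmented, recovered mice and from 416800 to 640400 in controls. Fat was thus present in every library, while these markers do not tell which fat pad was taken. The 15 skeletal muscle markers were all higher on average in the fragmented, recovered mice, with sums from 804.5 to 107900 there and from 660.6 to 14010 in controls. Fragmented, recovered 1 and control 2 had the highest muscle sums, and Ckm and Myh4 were at 0 in fragmented, recovered 3 and control 3. The 12 B cell markers all had a log2 difference below 0, though the mean count of Cd79a was higher in fragmented, recovered mice (496.1 against 423.5). Sums of the 12 ran from 65.9 to 11210 and from 57.6 to 25680. The high B cell libraries were fragmented, recovered 2, control 2 and control 3, while Pax5 and Cxcr5 were at 0 in control 1. The 12 mammary epithelium markers all had a log2 difference above 0, though the mean count of Wfdc18 was not higher (422.4 against 423). All were above 0 in every library. Their sums ran from 26000 to 35920 in fragmented, recovered mice and were 38440, 9344 and 11050 in controls 1 to 3. Of the 10 skin keratinocyte markers 9 were higher on average, with sums from 3496 to 6243 against 4909, 1779 and 1638. Ly6d was the largest part of these sums in fragmented, recovered mice (2551, 2743 and 4015). In controls Ly6d had 3072, 880.6 and 550.3. Krt1, Lor and Krtdap were near the floor, at 10.4 or less in every library. Krt1 was at 0 in controls 2 and 3 and from 1.04 to 3.61 elsewhere. Sums of 10 endothelium markers ran from 19630 to 23950 against 17380 to 19760, and of 10 macrophage markers from 11430 to 30940 against 18400 to 29810. In bulk tissue, fewer cells of a type and less RNA per cell cannot be told apart. Cells other than adipocytes also transcribe several of the 10 genes, and their part in the differences was not tested. Differences with libraries left out or with a marker score in the model are given below, and with 6 libraries they cannot separate that part.

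**Figure D1:**
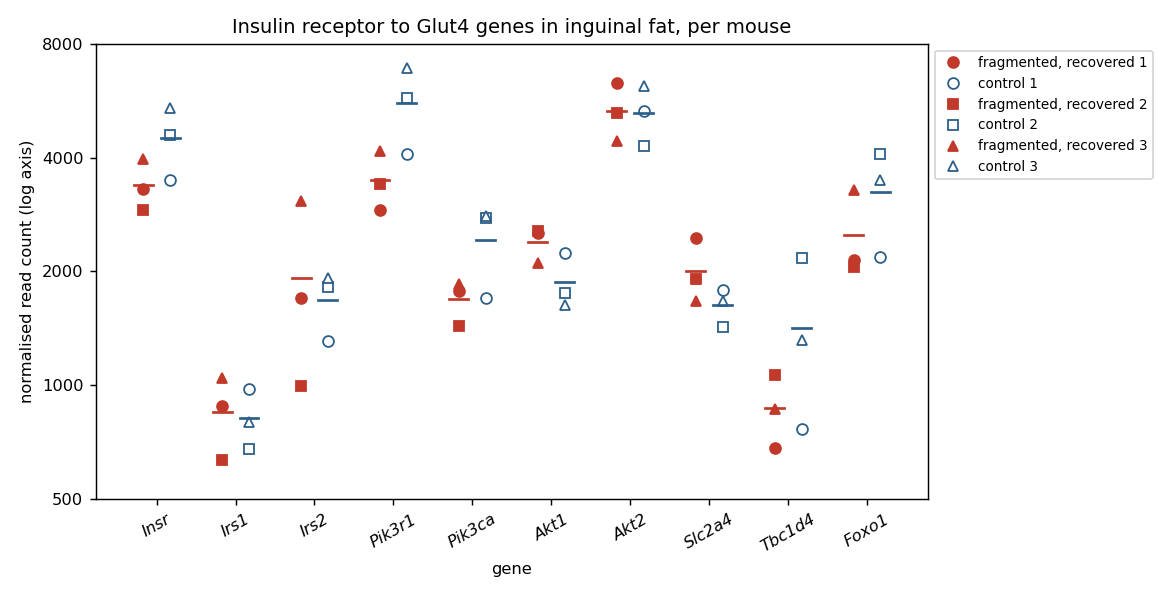
Normalised read count (log axis) of each of the 10 genes in each mouse, with filled red symbols for fragmented, recovered mice, open blue symbols for controls, 1 symbol shape per replicate number, and a bar at each group mean. The groups overlap for every gene, and control 1 lies within the range of the fragmented, recovered mice for all 10.

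Set per length, Akt2 was the most abundant of the genes and Irs1 the least. Akt2 had a mean level of 743.2 normalised reads per kilobase of annotated exon over the 6 libraries (range 602.5 to 884.8). Slc2a4 followed at 523.1 (410.8 to 705) and Akt1 at 520.8 (399.1 to 622.7). Pik3r1 had 450.5 (289.4 to 683.7), Foxo1 331.8 (237.2 to 473.5), Insr 287.3 (211.1 to 393.9) and Irs2 285 (157.3 to 485.6). The lowest were Pik3ca at 226.4 (157.5 to 308.9), Tbc1d4 at 148.9 (88.7 to 282) and Irs1 at 91.3 (69.3 to 113.9). Each neighbouring pair in this order overlapped in range. Irs1 and Akt2 at the ends did not overlap, so the kinase that acts on Glut4 traffic was at a higher level per length than the adaptor in every library. The lengths are those of all annotated exons in GENCODE M21, which need not be the isoforms made in fat.

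Insr, the receptor tyrosine kinase, had normalised read counts of 3312, 2901 and 3960 in fragmented, recovered 1 to 3. In controls 1 to 3 it had 3502, 4608 and 5414. Controls 2 and 3 lay above all other libraries, and control 1 lay among the fragmented, recovered mice. Group means were 3391 ± 533.7 and 4508 ± 959.8 (SD, n = 3 each). The log2 difference was -0.40 (SE 0.25, 95% interval -0.97 to 0.17), with a limma adjusted p of 0.697.

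Irs1 and Irs2, the adaptors that carry the signal from the receptor to the lipid kinase, both had differences close to 0. Irs1 had 879.2, 633.4 and 1042 in the fragmented, recovered mice and 977.3, 676 and 801 in the controls. The log2 difference of Irs1 was 0.04 (SE 0.27, 95% interval -0.57 to 0.65, limma adjusted p = 0.964). Irs2, which falls with feeding and is held up by FoxO factors in fasted liver, had 1703, 994.5 and 3071 in the fragmented, recovered mice. In controls it had 1311, 1815 and 1918. Fragmented, recovered mice held both the lowest and the highest Irs2 value, a 3.09-fold range, with a coefficient of variation of 54.9% in that group and 19.3% in controls. The log2 difference of Irs2 was 0.06 (SE 0.38, 95% interval -0.80 to 0.92, limma adjusted p = 0.964), so a change of nearly 2-fold in either direction lies within its interval. Leaving out fragmented, recovered 2 gave 0.46 and leaving out fragmented, recovered 3 gave -0.35, and neither passed.

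The Irs1 and Irs2 promoters are shown because Irs2 is a textbook target of FoxO and sterol-regulated factors, and its level was among the most variable of the 10. RefSeq gave 13 promoters (250 bases before to 50 after a start) for 8 of the genes. A gene is counted for a motif if any of its promoters holds it, while each percentage is a share of single promoters. Capitals mark the E box CACGTG and the insulin response element CAAAACA, on either strand.
Irs1 promoter (chr1:82291390-82291689, GRCm38.p6, minus strand): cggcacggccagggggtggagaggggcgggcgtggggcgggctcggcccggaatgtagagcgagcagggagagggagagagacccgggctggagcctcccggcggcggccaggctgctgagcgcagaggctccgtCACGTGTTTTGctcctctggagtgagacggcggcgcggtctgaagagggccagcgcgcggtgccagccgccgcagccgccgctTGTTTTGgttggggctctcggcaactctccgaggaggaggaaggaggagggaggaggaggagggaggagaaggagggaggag
Irs2 promoter (chr8:11008880-11009179, GRCm38.p6, minus strand): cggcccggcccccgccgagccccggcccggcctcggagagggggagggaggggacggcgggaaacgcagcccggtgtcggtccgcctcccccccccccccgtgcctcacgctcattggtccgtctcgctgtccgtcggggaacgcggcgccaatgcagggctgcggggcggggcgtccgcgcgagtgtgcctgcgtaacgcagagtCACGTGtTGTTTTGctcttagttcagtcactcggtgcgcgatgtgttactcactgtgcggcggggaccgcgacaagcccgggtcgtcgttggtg
In Irs2 the E box begins 44 bases before the start and is followed after 1 base by the insulin response element, read on the other strand as TGTTTTG. In Irs1 the E box begins 115 bases before the start and shares 2 bases with the first of 2 insulin response elements. CACGTG was found in 7.15% of the 32851 mouse promoters of this length, CAAAACA in 6.28% and both in 0.408%. Among the 8 genes with a promoter, Irs1 and Irs2 were the ones with either motif. The FoxO letters TGTTTAC were in 3.65% of promoters and in that of Akt1, and TGTTTNC, which includes them, was in 20.5% and in those of Akt1, Akt2 and Pik3ca. CCAAT was in 37.4% and in those of Akt2, Foxo1, Irs2 and Pik3r1, and GGGCGG was in 35.7% and in those of all 8. TTCNNNGAA was in 8.30% and in that of Akt2. TGACGTCA (1.79%), TGACGTG (2.01%) and the palindromic glucocorticoid response element (0.0578%) were in none of the 8. All motifs were searched on both strands, and a match is a description of letters.

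Pik3r1, the regulatory p85 subunit that docks on the adaptors, had the largest difference of the 10 genes by limma on deposited values, while Tbc1d4 was larger in edgeR (-0.68 against -0.65) and DESeq2 (-0.70 against -0.67). Its normalised read counts were 2916, 3413 and 4174 in fragmented, recovered mice and 4099, 5750 and 6891 in controls. The overlap came from control 1, which lay just below fragmented, recovered 3. Means were 3501 ± 633.4 and 5580 ± 1404 (SD, n = 3 each). The log2 difference was -0.66 (SE 0.27, 95% interval -1.27 to -0.05), with an unadjusted p of 0.0377 and a limma adjusted p of 0.697. Pik3ca, the p110 alpha catalytic subunit that p85 holds, had 1780, 1431 and 1855 against 1699, 2772 and 2807. Controls 2 and 3 were again above all other libraries. The difference for Pik3ca was -0.49 on the log2 scale (SE 0.27, limma adjusted p = 0.697).

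Akt1 and Akt2 encode kinases with separable roles, Akt1 more in growth and Akt2 more in glucose uptake. Akt1 had 2527, 2552 and 2104 in fragmented, recovered mice and 2234, 1754 and 1635 in controls. It was the reverse of the receptor and lipid kinase genes, with controls 2 and 3 below all other libraries. Its log2 difference was 0.36 (SE 0.23, 95% interval -0.15 to 0.88, limma adjusted p = 0.697). Akt2 had 6310, 5248 and 4440 against 5314, 4297 and 6192, with both groups spread over the same range. Its log2 difference was 0.02 (SE 0.25, 95% interval -0.55 to 0.59, limma adjusted p = 0.985).

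The Akt substrates were lower on average. Tbc1d4, the Rab GTPase-activating protein that keeps Glut4 vesicles inside the unstimulated cell, had 681.1, 1062 and 866.8 in fragmented, recovered mice. In controls it had 764.2, 2165 and 1319, and control 2 stood far above the rest. Its 3 highest libraries, control 2, control 3 and fragmented, recovered 2, were the 3 that were high in B cell markers. Its log2 difference was -0.60 (SE 0.37, 95% interval -1.43 to 0.23, limma adjusted p = 0.697), and -0.34 when the B cell score entered the model and -0.23 without control 2. Without fragmented, recovered 1 and control 2, the libraries highest in muscle markers, Tbc1d4 was at -0.0654. These held its lowest (681.1) and highest (2165) values, so leaving them out moves the difference toward 0 whatever their muscle content. Foxo1, the transcription factor that Akt keeps out of the nucleus, had 2148, 2056 and 3277 against 2178, 4103 and 3486. Fragmented, recovered 3 and controls 2 and 3 were the higher libraries. Its log2 difference was -0.37 (SE 0.30, limma adjusted p = 0.731), with -0.18 without control 2 and -0.0865 without the same pair of libraries. Control 2 was the highest library for Foxo1 (4103), and fragmented, recovered 1 (2148) lay below the mean of its group. The part of muscle in either gene was not tested.

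Slc2a4, the glucose transporter gene of fat and muscle, had 2452, 1905 and 1669 in fragmented, recovered mice and 1787, 1429 and 1674 in controls. The highest value was in fragmented, recovered 1, and 4 of the remaining 5 lay between 1669 and 1905. Means were 2009 ± 401.5 and 1630 ± 183.3 (SD, n = 3 each), and the log2 difference had a 95% interval from -0.24 to 0.82. Fragmented, recovered 1 also had the highest summed adipocyte markers (789900) and the highest summed muscle markers (107900). Without that mouse the difference was 0.14, and without it and control 2, the libraries highest in muscle markers, it was 0.04. The pair held the highest (2452) and lowest (1429) Slc2a4 values, so leaving it out shrinks the difference whatever its muscle content. The part of muscle was not tested. Set against the geometric mean of the adipocyte markers in the same library, Slc2a4 had log2 ratios of -2.94, -2.61 and -2.82 in fragmented, recovered mice and -2.96, -2.78 and -2.99 in controls. The 6 ratios ran from -2.99 to -2.61, and fragmented, recovered 1 no longer stood apart. The difference in this ratio was 0.12 (exact permutation test, two-sided, p = 0.4, adjusted over 7 ratios p = 0.7).

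Ratios between genes of the same library need no scaling between libraries. A trend of a library on GC content, described below, does not cancel where the paired genes differ in it, as Irs2 (56.6%) and Insr (46.8%) do. No ratio was taken with such trends removed. The log2 differences of the single genes were then -0.02 for Irs2, -0.04 for Insr, -0.09 for Akt2 and -0.08 for Akt1. The exact permutation test of 3 mice against 3 cannot go below p = 0.1, and no ratio reached that. Irs2 to Irs1 had mean log2 ratios of 1.05 ± 0.46 and 1.03 ± 0.54 (SD, n = 3 each, fragmented, recovered and control). Akt2 to Akt1 had 1.15 ± 0.15 and 1.49 ± 0.38, a difference of -0.34 that was -0.125 without control 3. The ratio of Pik3r1 to Pik3ca had 1.04 ± 0.29 and 1.21 ± 0.13. Slc2a4 to Slc2a1, the ubiquitous Glut1 transporter, had 2.04 ± 0.55 and 1.73 ± 0.42. Glut4 read counts were thus above those of Glut1 in each library, a comparison not set per length. Irs2 to Insr had -0.96 ± 0.59 and -1.42 ± 0.08, with fragmented, recovered mice from -1.54 to -0.37 and controls from -1.50 to -1.34. Its difference of 0.46 was 0.17 without fragmented, recovered 3 and 0.76 without fragmented, recovered 2. Insr to the adipocyte markers had the smallest p, with -2.03 ± 0.46 and -1.46 ± 0.47 (exact permutation test, two-sided, p = 0.2, adjusted p = 0.7 over the 7 ratios).

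**Figure D2:**
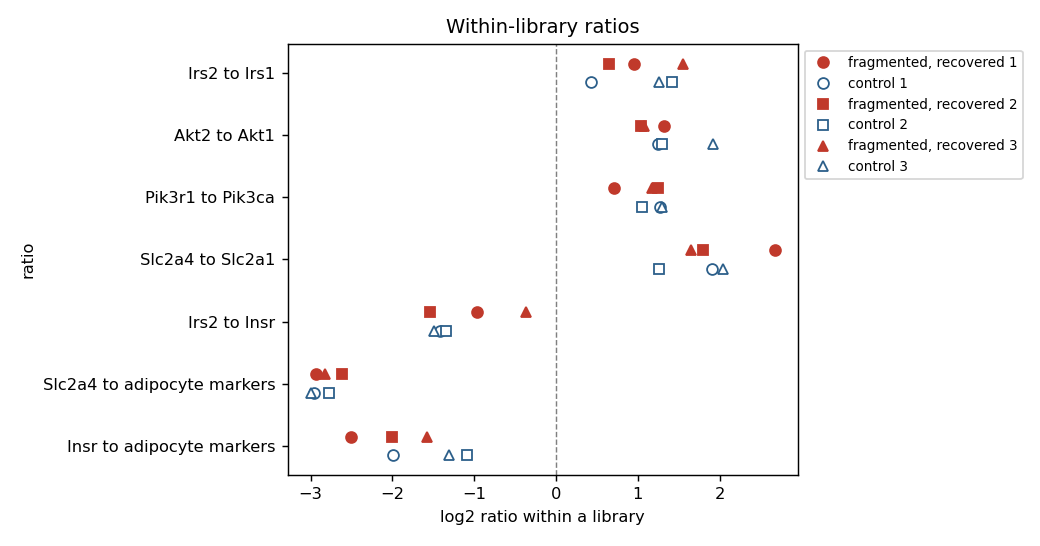
Log2 ratio of a pair of genes, or of a gene to the geometric mean of the adipocyte markers, within each library, with filled red symbols for fragmented, recovered mice and open blue symbols for controls. The groups overlap for each of the 7 ratios, and the Slc2a4 to adipocyte marker ratio is the tightest of the 7, from -2.99 to -2.61.

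The controls took like positions for several of the 10 genes. Control 1 lay within the range of the fragmented, recovered mice for 10 of the 10, against 64.9% of all genes. Control 2 lay above that range for 5 of the genes and below it for 3, and control 3 lay above it for 5 and below it for 1. Over all genes, control 2 was above for 32.9% and below for 30.7%, and control 3 above for 30% and below for 33.5%. Markers of mammary epithelium and of keratinocytes split the libraries the same way. The median deviation of the mammary markers was -1.22 in control 2 and -1.14 in control 3, against 0.124 to 0.867 in the other 4 libraries. That of the keratinocyte markers was -0.63 and -0.637, against 0.455 to 0.617, with Krt1, Lor and Krtdap near the floor in every library. Their part in the positions of the 10 genes was not tested. Without control 1 the groups no longer overlapped for 6 of the 10. These were Insr, Pik3r1, Pik3ca, Tbc1d4 and Foxo1, lower in fragmented, recovered mice, and Akt1, higher. Without that mouse 19.1% of all genes were separated in the lower direction and 22.5% in the higher.

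Without control 1, limma called 2.53% of all genes higher and 1.26% lower, and 0 of the 10. The smallest of their adjusted p-values was then 0.0797, for Pik3r1 at a log2 difference of -0.86. Pik3ca followed with -0.73 (limma adjusted p = 0.0844) and Tbc1d4 with -0.98 (limma adjusted p = 0.0969).

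**Figure D3:**
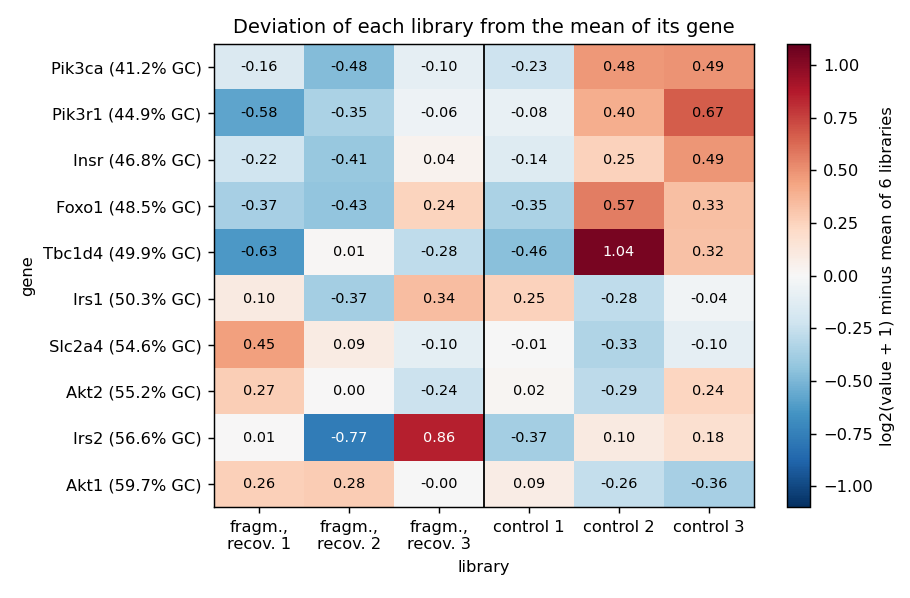
Deviation of each library from the 6-library mean of each gene, on the log2(value + 1) scale, with genes ordered by the GC content of their longest transcript and libraries in columns. In controls 2 and 3 the 5 genes of lowest GC content are above 0 and Akt1, the gene of highest GC content, is below 0, while control 1 and fragmented, recovered 1 are below 0 for those 5 and above 0 for Akt1.

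The order of the differences followed the base composition of the transcripts. The 5 genes with a difference below 0 were the 5 of lowest GC content in their longest annotated transcript, from 41.2% in Pik3ca to 49.9% in Tbc1d4. The 5 above 0 ran from 50.3% in Irs1 to 59.7% in Akt1. Transcript length sorted the genes in part too. The longest transcripts of the genes below 0 ran from 6483 bases in Tbc1d4 to 9355 in Insr. Those above 0 ran from 2690 in Akt1 to 6323 in Irs2, apart from Irs1 with 9144. GC content and length were not separated. Across the 10 genes the Spearman rho of log2 difference on GC content was 0.842, and across all 22262 genes with a known GC content it was 0.382. Genes of 1 library share its preparation and are not independent replicates. In each library, the rho across all genes of its deviation on GC content was -0.273 in control 2 and -0.273 in control 3, and between 0.132 and 0.368 in the other 4 libraries.

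Once trends on GC content and on transcript length were taken out of every library, the differences of the 10 genes shrank from a mean size of 0.33 to 0.14. Over all genes the mean size went from 0.61 to 0.54. Pik3r1 then had a log2 difference of -0.25 (SE 0.17) and Tbc1d4, now the largest of the 10 in size, -0.41 (SE 0.30). Insr had -0.04, Foxo1 -0.09 and Slc2a4 0.09. Pik3ca turned to 0.09 and Akt1 to -0.08, while Irs1 had 0.26 (SE 0.30). Irs2 kept its wide spread, with deviations of -0.87 in fragmented, recovered 2 and 0.70 in fragmented, recovered 3. None passed, and 0 of all genes did.

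**Figure D4:**
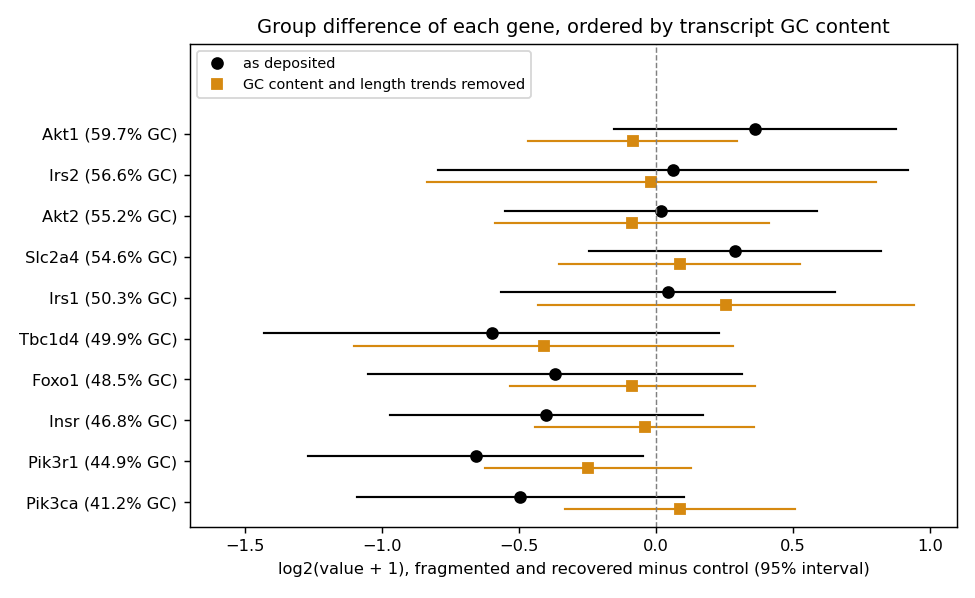
Log2 difference between groups for each gene with its 95% interval, as deposited (black circles) and after the trends on base composition and length were taken out (orange squares), ordered by transcript GC content. The black points move from -0.49 in Pik3ca at the bottom to 0.36 in Akt1 at the top, and the orange points of these 2 genes are 0.09 and -0.08.

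The rest of the insulin pathway gave no single gene past the threshold either, in 5 lists of 99 further genes. The counts of each list are read against all genes tested, of which 11494 were above 0 and 10796 below. Over all genes, 3.24% had an unadjusted p under 0.05 with a difference above 0 and 2.14% with one below 0. Of 24 other kinases and adaptors near the receptor, 8 were above 0 and 16 below, with a median difference of -0.27, and -0.12 with trends removed. Abundant members included Crk, an adaptor, at -0.28 (SE 0.25) and Rhoq, the small GTPase TC10, at -0.32 (SE 0.25).

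Trip10 (also called CIP4), which binds active TC10, was the single member of that list with an unadjusted p under 0.05. It had 733, 686.5 and 744.9 in fragmented, recovered mice and 652.3, 232.9 and 257.3 in controls. Every fragmented, recovered mouse was above every control, with control 1 close behind. The log2 difference was 1.08 (SE 0.38, limma adjusted p = 0.697), and 0.74 with trends removed. Without control 1 it passed at 1.56 (limma adjusted p = 0.0255), and with trends also removed it had 1.06 and did not (limma adjusted p = 0.0756).

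Among 20 negative regulators, 11 were above 0 and 9 below, with a median of 0.08. Grb10, an adaptor that blocks the receptor, had -0.31 (SE 0.29), and Ptprf, a receptor phosphatase, had 0.57 (SE 0.37). Of the list, 2 members had an unadjusted p under 0.05, both below 0, a class that held 2.14% of all genes. Enpp1, an ectoenzyme that binds the receptor, is 1 of them and is named after its value was seen. It had 135.8, 252.6 and 375.6 in fragmented, recovered mice and 312.3, 619.4 and 574.8 in controls, with overlapping groups and a difference of -1.03 (SE 0.42), and -0.67 with trends removed.

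The 25 genes of Glut4 vesicle traffic split into 9 above 0 and 16 below, with a median of -0.03. Lrp1 and Sort1, cargo proteins of these vesicles, had differences of -0.03 (SE 0.27) and -0.34 (SE 0.28), and Cltc, the clathrin heavy chain, -0.65 (SE 0.33). Vamp2, the vesicle SNARE that fuses Glut4 vesicles, had 1048, 1139 and 1261 in fragmented, recovered mice and 931.5, 724.6 and 500.2 in controls. All 3 were above all controls, with a log2 difference of 0.72 (SE 0.28, limma adjusted p = 0.697), and 0.46 with trends removed. Lnpep, the aminopeptidase IRAP that travels in the same vesicles, is named after its value was seen, as the 1 member below 0 with an unadjusted p under 0.05. It had 2748, 3816 and 4345 against 3320, 9649 and 11040, a difference of -0.99 (SE 0.43), and -0.36 with trends removed. Vamp2 and Lnpep, partners on 1 vesicle, thus stood on opposite sides of 0.

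FoxO factors and targets were 13 above 0 and 5 below out of 18, with a median of 0.16, and also 0.16 with trends removed. The median was -0.00287 without fragmented, recovered 3, 0.0377 without control 2 and 0.0273 without the pair highest in muscle markers. The most abundant targets were Pnpla2, the triglyceride lipase ATGL, with 59180, 38900 and 45640 in fragmented, recovered mice and 55640, 27610 and 34740 in controls, a difference of 0.33 (SE 0.39). Pdk4, which slows glucose oxidation in fasting, had 11790, 9093 and 18930 against 15210, 9614 and 10630, a difference of 0.13 (SE 0.34). Fragmented, recovered 3 was the highest library for Pdk4, as it was for Irs2. Txnip, which restrains glucose uptake, had 0.01 (SE 0.33). Foxo6, a FoxO factor best known from brain, had an unadjusted p under 0.05 from 10, 12 and 4 whole reads in fragmented, recovered mice and 1, 0 and 0 in controls. With counts this low its log2(value + 1) difference of 2.67 (SE 0.83, limma adjusted p = 0.697) depends on the added 1.

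Of 12 genes for other routes of glucose entry and its sensing, 4 were above 0 and 8 below, with a median of -0.09, and none had an unadjusted p under 0.05. Mlxip, a glucose-sensing transcription factor, had -0.20 (SE 0.28), Hk2, the insulin-responsive hexokinase, 0.004 (SE 0.25), and Hk1, the constitutive hexokinase, 0.51 (SE 0.30). Over the 5 lists, limma without control 1 called 7 of the 99 genes, 3 higher and 4 lower, where it called 2.53% of all genes higher and 1.26% lower. Trip10, Stx4a and Ubxn6 were the 3 higher, and Cbl, Lnpep and Myo5a were among the 4 lower. With trends also removed it called 0 of the 99, and 88 of all genes (0.395%).

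**Figure D5:**
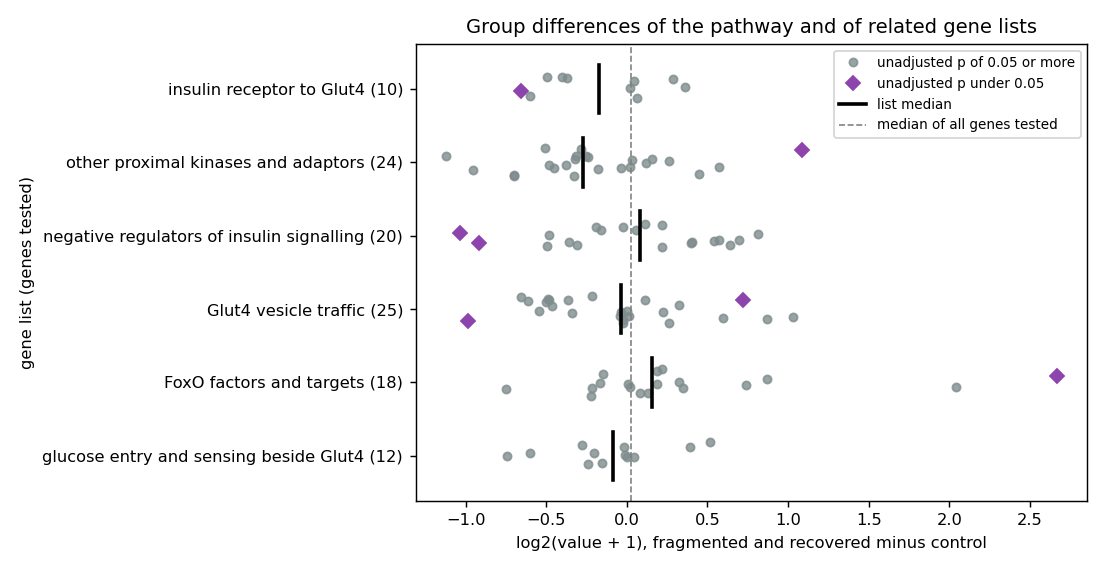
Log2 difference between groups for each gene of the path and of the 5 related lists, 1 point per gene, with purple diamonds for an unadjusted p under 0.05, a black bar at the list median and a dashed line at the median of all genes tested. The list medians lie between -0.27 and 0.16, and the diamonds stand on either side of 0.

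Slc2a4 and Irs2 had different companions among 12937 genes whose mean level reached 50. By Pearson correlation over the 6 libraries, which come from 2 groups and share preparation, the genes most like Slc2a4 were Rps26-ps1 (r = 0.997, Spearman rho = 0.943), Taco1 (r = 0.993), Tubb4b (r = 0.989), Palm (r = 0.988) and Ctcflos (r = 0.986). All 5 were highest in fragmented, recovered 1, as Slc2a4 was. The genes most like Irs2 were Tiparp, a poly-ADP-ribose polymerase gene (r = 0.999, Spearman rho = 1), Ube2o (r = 0.980), Plcb4 (r = 0.979), Samd4 (r = 0.977) and Ptpn9 (r = 0.971). Tiparp had 958, 613.7 and 1652 in fragmented, recovered mice and 756.7, 1024 and 1062 in controls, the same order of mice as Irs2. These are the highest of many correlations over 6 points, given as a description.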

How the data were processed

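The deposited signal is a read count per Ensembl gene divided by 1 size factor per library by the authors. This follows from the values, since the smallest nonzero value of a column is worth 1 read, and 100% of values were whole multiples of it within 0.02. These divisors equalled the DESeq2 size factors of the recovered reads, from 0.8847 to 1.318. Per the submitters' processing notes, CASAVA, HISAT2 2.0.5, featureCounts 1.5.0-p3 and build mm8 were used, and the annotation and strand setting are not given in the sources used here. Overlapping or antisense genes can therefore share reads. No coordinates of the files are printed, and promoters are from RefSeq on GRCm38.p6. Symbols were matched by identifier, which left 33 of 25894 unmatched. One listed marker was not analysed here.

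The design foresaw raw counts or normalised values, and the second plan was used: limma 3.58.1 (R 4.3.3) with an intensity trend on log2(value + 1), for genes with a mean of at least 1, all 6 libraries, two-sided, Benjamini-Hochberg over all 22290 genes, FDR 0.05. edgeR 4.0.16 and DESeq2 1.42.0 on recovered reads were alternatives. Fold changes on this scale are understated for low genes. Trends on GC content and length (GENCODE M21, known for 99.87% of genes tested) were fitted with splines (4 degrees of freedom) and subtracted. The test was also run on simulated counts with changes larger than those of the 10 genes, and the outcome is not given here. The labels say that samples are individual mice. The 10 genes and all lists were chosen with earlier results of these data known, so no list was tested and none is independent support. Besides the 10, named genes were the 3 most abundant of each list and those with an unadjusted p under 0.05 and no overlap, plus the 5 genes most like Slc2a4 and Irs2. Some genes that the rule names are not reported here. At least 598 reads stood behind every value of the 10 genes, a counting error of at most 4.09%, below the spread between mice.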

Additional observations from a re-analysis of the deposited data

How the results depend on the processing

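Across the 21 alternatives none of the 10 genes passed, and 187 of their 210 values kept direction. Pik3r1, Slc2a4, Tbc1d4 and Foxo1 kept theirs in every alternative run. The count over all genes went from 0 to 1023 with limma-voom quality weights on recovered reads, where Irs2 had -0.003734 and Akt2 -0.0766. It ranged from 0 to 844 when 1 mouse was left out, with 844 without control 1. With GC content and length trends removed it stayed 0, and Irs2 had -0.0163, Pik3ca 0.0877, Akt1 -0.0846 and Akt2 -0.0870. With those trends removed and control 1 left out, a setting chosen after seeing the data, it was 88, and Insr had 0.0134, Irs2 -0.16, Pik3ca 0.14, Akt1 -0.14 and Akt2 -0.0804. Without the 2 libraries highest in muscle markers, Irs1 had -0.12, Akt2 -0.25 and the Slc2a4 to Slc2a1 ratio -0.24. When the B cell score entered the model Irs1 had -0.11 and Irs2 -0.0263, and with the adipocyte marker score Irs1 had -0.00215 and Akt2 -0.0923. Leaving out 1 mouse moved Irs1 from -0.12 to 0.24, Irs2 from -0.35 to 0.46 and Akt2 from -0.12 to 0.14. It moved the log2 ratios Irs2 to Irs1 from -0.29 to 0.22, Pik3r1 to Pik3ca from -0.27 to 0.00523 and Slc2a4 to Slc2a1 from -0.00552 to 0.50. Among the other ratios, Insr to adipocyte markers went from -0.57 to -0.14 without the muscle-high pair, and Slc2a4 to adipocyte markers from 0.12 to 0.26. Of 147 medians 7 moved beyond their spread, all of them medians of lists. The 147 include the median of all genes tested, which was not checked for movement and was 0.135 with library size scaling alone. Leaving out fragmented, recovered 3 gave -0.434 for the 10 genes and -0.00287 for the FoxO list. Without the muscle-high pair the kinases and adaptors had -0.0853 and glucose entry -0.249, and with library size scaling alone vesicle traffic had 0.0849. With trends removed and control 1 left out, negative regulators had -0.079 and the FoxO list 0.293. The causes were not tested.

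With the replicate number as a block, 0 genes passed. An unadjusted p under 0.05 was then held by 2676 genes, against 1201 without the block. Pik3r1 had an unadjusted limma p of 0.00991 (limma adjusted p = 0.37) and Tbc1d4 one of 0.0311 (limma adjusted p = 0.384). Same-numbered mice had deviations correlated at 0.177, 0.393 and 0.0425. Fragmented, recovered 1 and 2 and controls 2 and 3 correlated best with their own number, and fragmented, recovered 3 and control 1 did not. These correlations do not settle whether the numbers pair the mice, and the main test did not pair them. P-values set a group difference against the spread between these mice only, and limma moderates that spread across genes.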
